A study of Rattus norvegicus with 2 samples.

Results

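SOX genes encode transcription factors with a shared DNA-binding domain of the high mobility group type, and 10 of them were chosen by name for their roles in neural and vascular cells: *Sox2*, *Sox4*, *Sox5*, *Sox6*, *Sox8*, *Sox9*, *Sox10*, *Sox11*, *Sox17* and *Sox21*. Of these, 9 had a row among the 32883 genes counted in both libraries, and *Sox4* is not analysed here. The data were unique molecular identifier (UMI) counts, in which 1 UMI stands for 1 captured mRNA molecule, from single cells of the hypothalamus of female Sprague Dawley rats on postnatal day (PND) 29. Each group was 1 library from the pooled tissue of 3 rats, cut so as to hold the AVPV and ARC. Control rats, called intact in the labels, carried a capsule with sesame oil vehicle, and SC300 rats a subcutaneous silicone capsule with 300 µg estradiol benzoate (EB). Capsules were in place from PND 0.5, and the groups were of the same strain, sex and age.

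The family is divided into subgroups by the similarity of the DNA-binding domain. SoxB1 factors such as SOX2 hold cells in a progenitor state, SoxE factors act in glia, with SOX9 in the astrocyte and ependymal lineages and SOX10 in the oligodendrocyte lineage, and SoxD factors, which lack a transactivation domain, modulate the activity of SoxE partners. SoxC factors are known from immature neurons and precursors, and SoxF factors from endothelium.

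The Control library held 4296 cells and the SC300 library 4379 cells with at least 200 detected genes, with medians of 7986 and 8182 UMIs per cell. Cells were given to 12 classes by fixed lists of marker genes, none of them a SOX gene, and 87.0% and 86.8% of the cells received a class. The classes are named by those markers, so that "astrocyte" stands for astrocyte-like cells and likewise for the others, and they held between 12 and 1366 cells per library. Levels are given as CPM, the UMIs of a gene per 1000000 UMIs of all cells of a class in a library. Brackets hold exact 95% intervals, which cover counting error only. With 1 library per group there was no measure of the spread between rats and no test, and each difference is one between these libraries. The 2 libraries shared 9 cell barcodes. Of the 268 cells in the ependymal class, 130 lay in a graph cluster led by tanycyte genes such as *Crym*. For *Sox2*, *Sox5* and *Sox9*, values of the ependymal class are also given for the 2 groups of cells apart. Those of other genes are for the whole class. Likewise, 148 of the 732 cells in the endothelial class lay in a cluster led by pericyte genes such as *Kcnj8* and *Abcc9*.

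*Sox2* (ENSRNOG00000012199), a SoxB1 factor of neural stem cells and many glia, was the most abundant SOX gene, with 17686 UMIs in the Control library and 17807 in the SC300 library. Its level was highest in newly formed oligodendrocytes, at 1358 CPM [1295, 1425] in Control and 1104 CPM [1052, 1158] in SC300. Ependymal cells followed with 1039.7 and 906 CPM, and tanycytes with 1019.7 and 849 CPM, and the counting intervals of these neighbours in the order overlapped in each library. Astrocytes held 589 CPM in Control and 709 CPM in SC300, and oligodendrocyte precursors 562 and 521 CPM. The intervals of astrocytes and precursors overlapped in Control and were apart in SC300. Mature oligodendrocytes stood below these classes, at 142 and 150 CPM, and microglia held 4.22 and 7.09 CPM. When classes were taken from graph clusters instead, the tanycyte cluster came first in both libraries, with 1145 CPM in Control and 1005 CPM in SC300, so the first place of newly formed oligodendrocytes depended on how cells were classed.

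At least 1 UMI of *Sox2* was found in 86.6% of Control astrocytes and 93.6% of SC300 astrocytes, and in 83.0% and 86.4% of mature oligodendrocytes. The depth of a cell bears on such shares, since mature oligodendrocytes had a median of 20022 and 20831.5 UMIs and astrocytes one of 6300.5 and 6563.5. After each cell was thinned to 2000 UMIs, 66.2% and 74.4% of astrocytes kept a UMI, against 25.8% and 23.6% of mature oligodendrocytes. In neurons, 64.4 CPM in Control and 64.8 CPM in SC300 came from 42.8% and 42.7% of the cells, and from 10.3% and 8.77% after thinning. Microglia, which should lack the gene, gave 2.91% and 3.95%, and 0.719% and 0.973% after thinning, so the share in neurons lay above this background in each library.

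*Sox21* (ENSRNOG00000052579), a SoxB2 factor that acts against SoxB1 factors during neuronal differentiation, was close to absent, with 4 UMIs in 4 Control cells and 3 UMIs in 3 SC300 cells. These were 0.0778 and 0.0532 CPM over all cells. No class had more than 2 UMIs of the gene in a library.

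The promoters of the SoxB pair are shown because the genes stood at opposite ends of the range of levels. RefSeq promoters of build GRCr8, from 250 bases before to 50 bases after the transcript start, matched 4 of the 10 genes: *Sox2*, *Sox6*, *Sox11* and *Sox21*. *Sox2* lies at chr2:119464881-119465180 on the plus strand and *Sox21* at chr15:101703126-101703425 on the minus strand, written 5′ to 3′ along the gene. Capitals mark a CCAAT box (CCAAT) or a GC box (GGGCGG) on either strand.
Sox2: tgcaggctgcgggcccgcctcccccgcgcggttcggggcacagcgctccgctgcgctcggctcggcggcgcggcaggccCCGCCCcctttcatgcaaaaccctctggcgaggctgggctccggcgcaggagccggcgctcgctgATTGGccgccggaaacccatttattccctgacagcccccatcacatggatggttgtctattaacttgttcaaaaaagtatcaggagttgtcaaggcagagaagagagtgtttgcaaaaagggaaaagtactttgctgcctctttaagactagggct
Sox21: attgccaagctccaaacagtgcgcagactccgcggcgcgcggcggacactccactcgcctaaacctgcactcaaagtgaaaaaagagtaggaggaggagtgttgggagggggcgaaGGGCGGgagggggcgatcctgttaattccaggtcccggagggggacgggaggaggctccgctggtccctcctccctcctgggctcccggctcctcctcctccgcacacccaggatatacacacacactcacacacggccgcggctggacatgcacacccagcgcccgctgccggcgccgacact
The *Sox2* window held a GC box at -171 and a CCAAT box at -106 from the start, and the *Sox21* window a GC box at -134. Among all 33469 rat promoters of this length, 37.5% held a CCAAT box and 33.1% a GC box, so each match is common and is only a description. Neither held the letters TATAAA, found in 14.2% of promoters. The G and C content was 60.7% for *Sox2* and 65.7% for *Sox21*, beside a median of 51.7% over all promoters.

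Of the SoxC pair, *Sox11* (ENSRNOG00000030034), a factor of immature neurons and of progenitors, was counted at low levels, with 183 UMIs in Control and 215 in SC300. Neurons held the most of these UMIs, 84 in Control and 86 in SC300, which gave 7.12 CPM [5.68, 8.82] and 7.04 CPM [5.63, 8.70]. GABAergic neurons, split off by *Gad1*, *Gad2* and *Slc32a1*, held 8.88 and 7.51 CPM, and glutamatergic neurons, split off by *Slc17a6*, 4.59 and 4.97 CPM. These intervals overlapped within each library.

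By level, oligodendrocyte precursors came first for *Sox11*, with 10.7 CPM [6.90, 15.8] in Control and 19.4 CPM [14.3, 25.6] in SC300. In Control this interval overlapped that of ependymal cells, at 9.49 CPM [6.53, 13.3] from 33 UMIs. In SC300 it lay apart from that of neurons, the next class, and ependymal cells held 5.73 CPM. In precursors the UMIs were spread thinly, since 25 of 374 Control cells and 45 of 362 SC300 cells held any. A cell held at most 1 UMI in Control and 3 in SC300. Newly formed oligodendrocytes had 1 UMI of *Sox11* in each library. No UMI was found in 371 Control and 464 SC300 mature oligodendrocytes, which, at 3 UMIs, allows up to 0.376 and 0.281 CPM. The gene was thus counted at the precursor stage and was at or under the limit of detection at both later stages. The *Sox11* promoter held a GC box at -232 and a CCAAT box at -69.

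*Sox5* and *Sox6* are SoxD factors known to restrain the early differentiation of oligodendrocyte precursors. *Sox5* (ENSRNOG00000027869) was highest in tanycytes, at 91.9 CPM in Control and 65.9 CPM in SC300, and in oligodendrocyte precursors, at 84.5 and 64.8 CPM, with overlapping intervals in each library. Ependymal cells held 48.3 and 26.0 CPM, and astrocytes 35.2 and 33.2 CPM. In Control the ependymal level lay above the astrocyte level, and in SC300 the intervals overlapped. This order did not hold with graph clusters, where ependymal cells stood at 28.6 CPM in Control and astrocytes at 35.7 CPM. Neurons held 8.99 and 9.33 CPM, in 19.3% of cells in each library.

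*Sox6* (ENSRNOG00000020514) had its highest level in oligodendrocyte precursors, at 164 CPM in each library, followed by newly formed oligodendrocytes at 128 and 91.4 CPM. Astrocytes held 24.8 and 28.4 CPM, ependymal cells 21.6 CPM in each library, and tanycytes 12.1 and 22.0 CPM. In mature oligodendrocytes the level was 0.251 CPM in Control, from 2 UMIs, and 0.750 CPM in SC300, from 8 UMIs. *Sox5* and *Sox6* thus left the lineage at different stages. From precursors to newly formed cells *Sox5* went from 84.5 to 9.58 CPM in Control and from 64.8 to 6.53 CPM in SC300, while *Sox6* went below 1 CPM only in mature cells.

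The make-up of the SoxD UMIs, which compares 2 genes by 3′ molecules and not by length, showed the same order in both libraries. *Sox6* made up 66.0% of the SoxD UMIs of Control precursors and 71.7% of SC300 precursors, and 93.0% and 93.3% in newly formed oligodendrocytes. In astrocytes the share was 41.3% and 46.1%, and in tanycytes 11.6% [6.66, 18.5] and 25.0% [16.2, 35.6]. A UMI of each gene was found together in 24.1% and 22.7% of precursors, beside 22.8% and 21.3% if they were detected independently.

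The *Sox6* promoter is shown because it was the only one of the 4 windows that held letters of the SOX core. It lies at chr1:179665322-179665621 of GRCr8 on the minus strand, and capitals mark the SOX core ACAAT, its longer form ACAAAG, and the CCAAT box on either strand.
Sox6: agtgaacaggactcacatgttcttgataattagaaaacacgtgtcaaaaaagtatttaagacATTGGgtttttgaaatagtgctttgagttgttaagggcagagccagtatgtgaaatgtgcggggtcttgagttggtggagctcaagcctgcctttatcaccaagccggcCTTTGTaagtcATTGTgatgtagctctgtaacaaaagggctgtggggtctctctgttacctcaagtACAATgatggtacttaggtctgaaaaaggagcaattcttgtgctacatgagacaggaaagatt
The window held the SOX core on opposite strands, as ATTGT at -68 and ACAAT at -13. The longer ACAAAG stood as CTTTGT at -79, and CCAAT as ATTGG at -188. ACAAT was found on either strand in 33.7% of all promoters and ACAAAG in 18.8%. A match says that these letters are present and is no evidence of binding. The G and C content of the window was 42.0%, the lowest of the 4.

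Of the SoxE genes, *Sox9* differed from *Sox8* and *Sox10* in its highest class. *Sox9* (ENSRNOG00000002607), known for the start of gliogenesis and for the maintenance of astrocytes, was highest in ependymal cells, at 872 CPM [841, 903] in Control and 759 CPM [724, 796] in SC300. Tanycytes held 545 and 368 CPM and astrocytes 534 and 538 CPM. The intervals of tanycytes and astrocytes overlapped in Control, and in SC300 tanycytes lay below astrocytes. Of the oligodendrocyte classes, mature cells held the most *Sox9*, at 51.1 CPM in Control and 35.0 CPM in SC300, with 9.39 and 15.0 CPM in precursors.

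*Sox10* (ENSRNOG00000011305), which is required for the differentiation of oligodendrocytes and activates myelin genes, was highest in newly formed oligodendrocytes, at 849 CPM [799, 901] in Control and 745 CPM [703, 790] in SC300. Precursors held 608 and 572 CPM and mature oligodendrocytes 295 and 296 CPM. Astrocytes held 4.04 and 2.48 CPM, and neurons 1.78 and 1.97 CPM. *Sox10* UMIs were found in 91.2% and 96.4% of precursors, and in 93.5% and 97.4% of mature oligodendrocytes, beside 0.448% and 1.16% of microglia.

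*Sox8* (ENSRNOG00000018841), a partner of SOX10 with overlapping function, was counted in the oligodendrocyte classes and in astrocytes. Precursors held 296 and 261 CPM and newly formed oligodendrocytes 289.9 and 219 CPM, followed by mature oligodendrocytes at 93.2 and 85.9 CPM. With graph clusters newly formed oligodendrocytes came first, at 326 and 260 CPM, beside 274 and 245 CPM in precursors. Astrocytes held 74.5 and 69.7 CPM, in 40.4% and 38.7% of cells. In tanycytes, at 16.9 and 18.8 CPM, and ependymal cells, at 12.6 and 12.8 CPM, the level was below that of astrocytes, while the *Sox9* level of ependymal cells was above it.

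**Figure D1:**
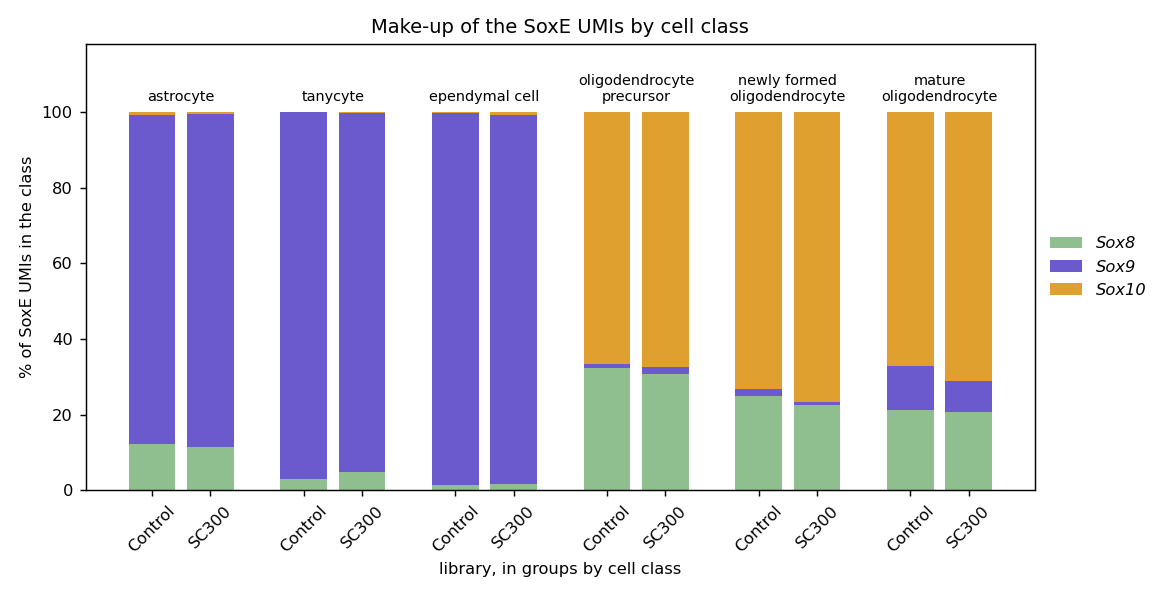
Share of the SoxE UMIs (*Sox8*, *Sox9* and *Sox10* together) that came from each gene, in percent, in 6 classes of each library. *Sox9* filled 87.2% and 88.2% of the bars of astrocytes, and *Sox10* 66.6% and 67.4% of those of oligodendrocyte precursors.

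The plot of the SoxE make-up shows that *Sox9* gave 87.2% of the SoxE UMIs in Control astrocytes and 88.2% in SC300 astrocytes, and 98.3% and 97.7% in ependymal cells. In precursors *Sox10* gave 66.6% and 67.4% and *Sox8* 32.4% and 30.8%, with *Sox9* at 1.03% and 1.77%. In mature oligodendrocytes *Sox9* returned to 11.6% [10.6, 12.7] in Control and 8.39% [7.59, 9.24] in SC300.

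Within single cells, *Sox9* and *Sox10* were found together in 2.67% of Control and 3.59% of SC300 precursors, and in 46.4% and 39.7% of mature oligodendrocytes. Independent detection would give 2.68% and 3.73% in precursors, and 44.1% and 39.0% in mature cells. Of the mature cells with *Sox9*, 98.3% and 98.9% also held *Sox10*, which was found in 347 of all 371 Control and 452 of all 464 SC300 mature cells. After thinning to 2000 UMIs, *Sox9* was found in 11.8% and 7.79% of mature oligodendrocytes, 1.44% and 0.845% of precursors, and 0.240% and 0.730% of microglia. The share in mature cells was thus above that of microglia at matched depth. The shares in precursors and microglia rest on few cells and are not read as a difference. *Mmd2*, a gene downstream of SOX9 in glial precursors, was not ordered like *Sox9* in these classes, with 354 and 334 CPM in precursors, 139 and 119 CPM in mature oligodendrocytes, and 1131 and 1153 CPM in astrocytes. *Sox2* and *Sox9* were found together in 79.2% and 86.8% of astrocytes, beside 74.7% and 84.5% if detected independently. For *Sox2* and *Sox10* in precursors the shares were 82.1% and 87.8%, beside 79.7% and 86.8%.

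**Figure D2:**
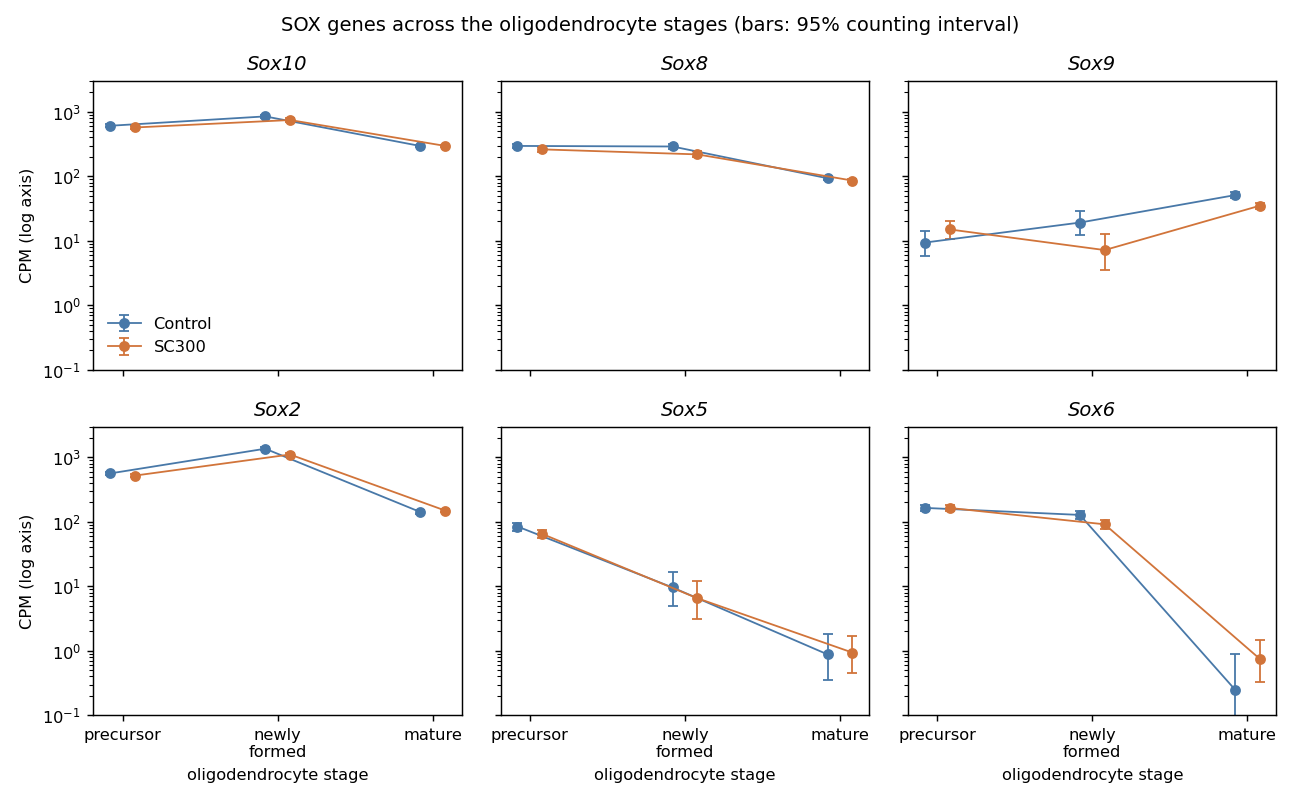
Level of 6 SOX genes (CPM, log axis) in oligodendrocyte precursors, newly formed and mature oligodendrocytes of each library, with 95% counting intervals. *Sox10* and *Sox2* peak in newly formed cells, *Sox5* and *Sox6* end below 1 CPM, and *Sox9* ends at 51.1 and 35.0 CPM.

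Across the oligodendrocyte stages, plotted with their intervals, *Sox2* and *Sox10* had their peak in newly formed cells in both libraries. The intervals of *Sox8* in precursors and newly formed cells overlapped in each library. All 3 genes were lowest in mature cells.

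*Sox17* (ENSRNOG00000027357), a SoxF factor of arterial endothelium, was confined for the most part to vessels. Endothelial cells held 377 CPM [359, 396] in Control and 339 CPM [323, 357] in SC300, in 85.2% and 85.6% of cells, and 81.3% and 73.2% of all *Sox17* UMIs of the libraries. Mural cells held 124 and 89.9 CPM, and the endothelial marker *Cldn5* stood there at 1737 and 2238 CPM beside 6335 and 6657 CPM in endothelial cells. *S100a8* and *S100a9*, known from neutrophils, led the genes of the mural class. With graph clusters the cluster named mural held 295 CPM of *Sox17* in Control and 280 CPM in SC300, beside 368 and 329 CPM in the endothelial cluster. Only 23.8% of the cells of that mural cluster were of the mural gate. Cells of the endothelial gate gave 673 of its 961 *Sox17* UMIs in Control and 690 of 1206 in SC300. The mural level thus depended on how cells were classed, and the cluster value is not one of mural cells alone. The part of endothelial RNA in the value of the mural gate was not tested. The stromal values of 61.6 and 64.9 CPM came from 9 UMIs in 1 Control cell and 30 UMIs in 2 SC300 cells. In the glial and neuronal classes *Sox17* was at or below 2.87 CPM.

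**Figure D3:**
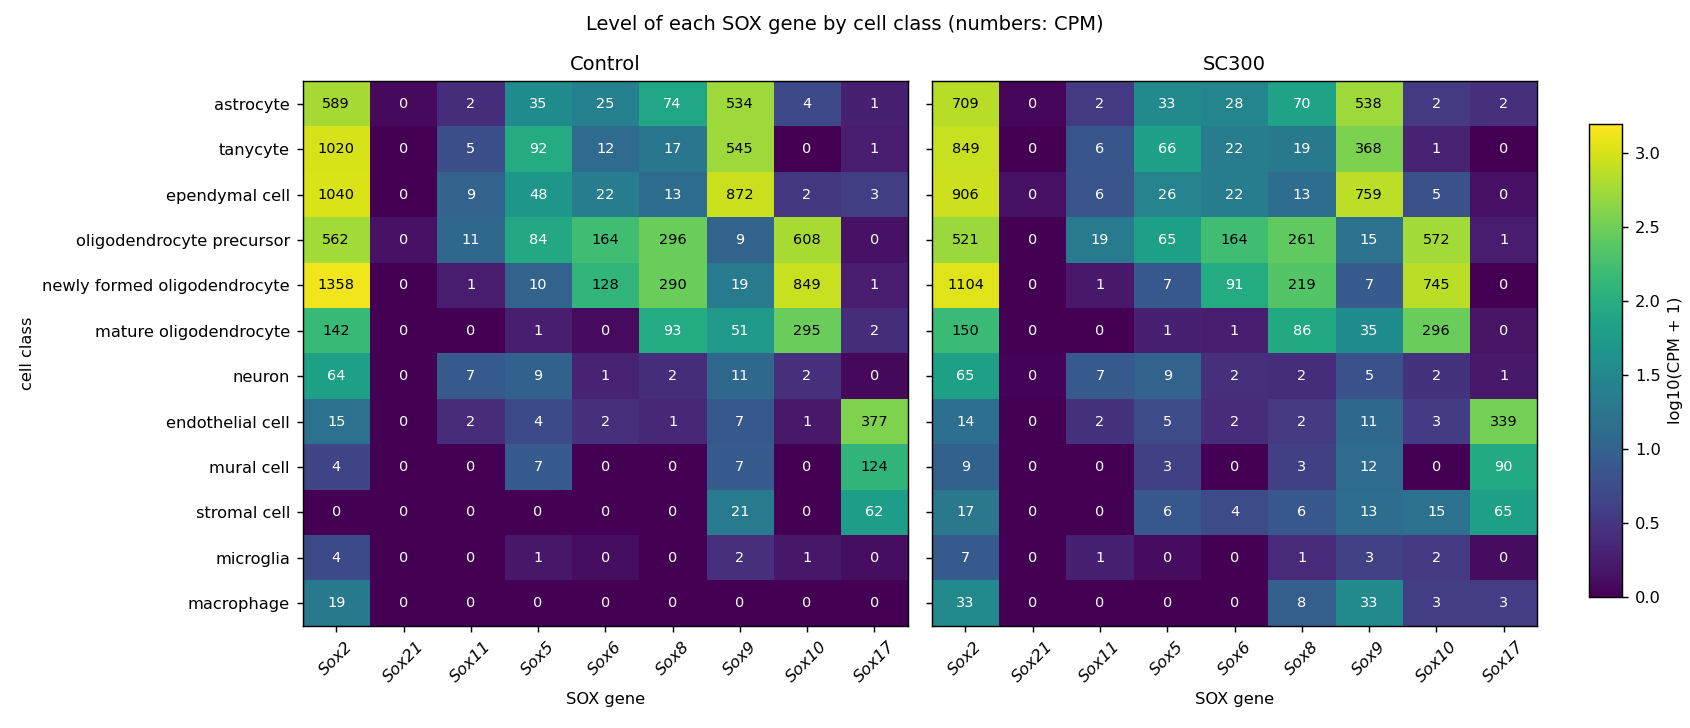
Level of the 9 SOX genes (columns) in 12 cell classes (rows) of the Control and SC300 libraries, with the CPM printed in each cell and the colour on a log10(CPM + 1) scale. *Sox2* is high in all glial classes other than mature oligodendrocytes and microglia, *Sox9* is highest in ependymal cells and *Sox10* in newly formed oligodendrocytes, both are counted in mature oligodendrocytes, and *Sox17* is high in endothelial cells.

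Over all cells, the SC300 library held less *Sox9*, at 165 CPM against 206 CPM, and less *Sox5*, at 16.5 against 21.7 CPM. *Sox10* stood at 108 against 99.6 CPM and *Sox2* at 316 against 344 CPM. These totals move with the numbers of cells per class, since the SC300 library held 63 tanycytes and 109 ependymal cells against 111 and 159 in Control, and 464 mature oligodendrocytes against 371. Numbers of cells recovered by dissociation cannot be told apart from numbers in the tissue. The libraries were therefore compared within classes.

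A level was called apart when it differed by over 1.5-fold and the counting interval of the log2 ratio did not include 0, among gene and class pairs with at least 50 UMIs in the libraries together. Of 37 such pairs from 8 SOX genes, 4 were called, 2 higher and 2 lower in SC300, which is 10.8% beside 5.78% of all 77237 pairs of genes and classes. Over the 37 pairs, called or not, the ratios leaned lower. The interval lay wholly below 0 for 16 of the 37, beside 10.6% of all pairs, and wholly above 0 for 3, beside 8.13%. An interval excludes 0 more readily at high counts, and the SOX pairs were not matched to other pairs by count. The median log2 ratio was -0.11 for the SOX pairs and -0.02 for all pairs.

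**Figure D4:**
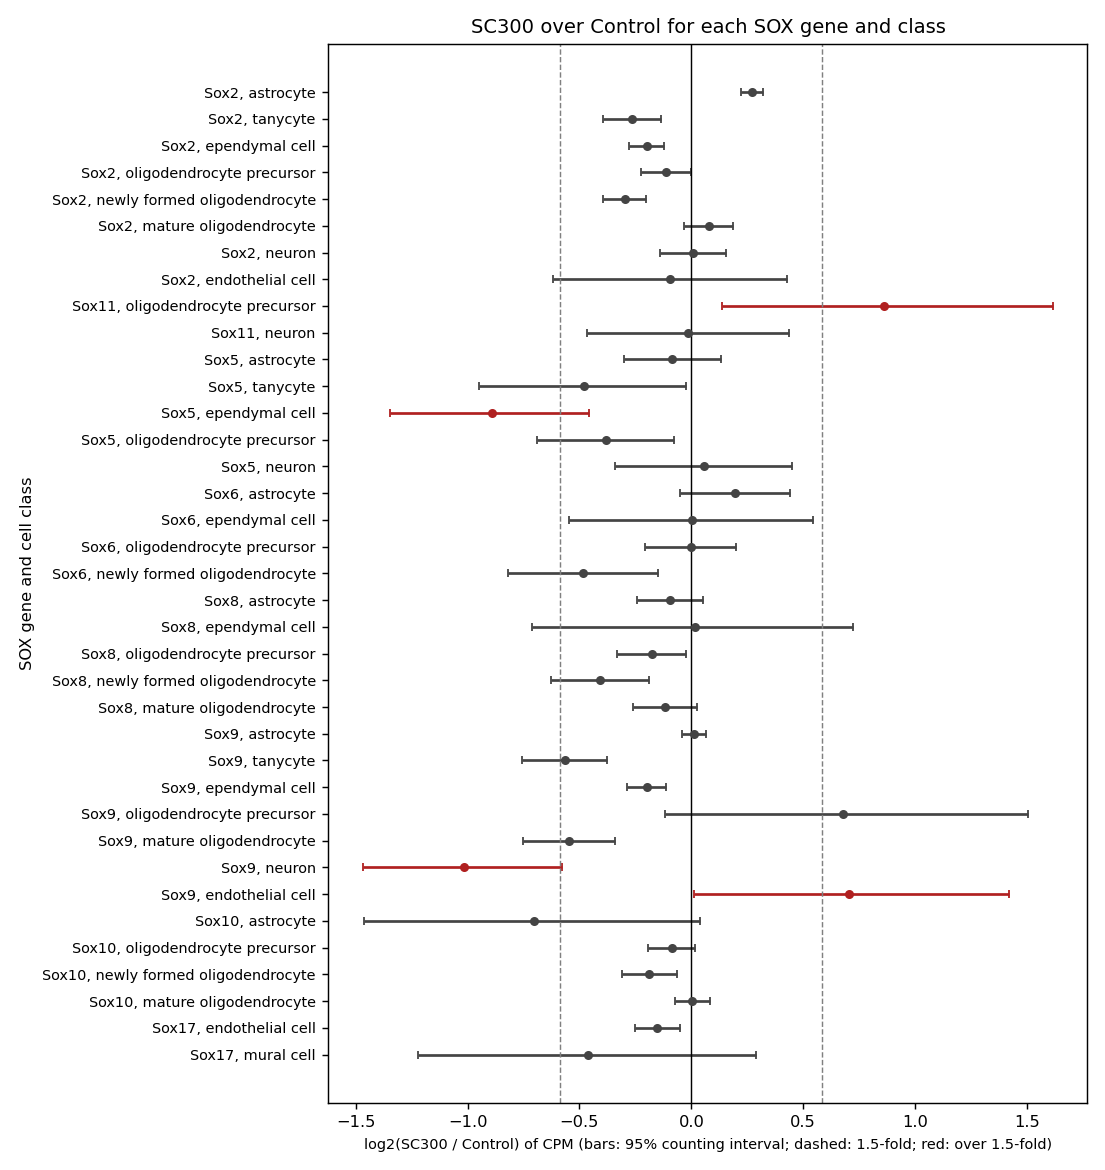
Log2 ratio of SC300 over Control CPM for 37 pairs of SOX gene and cell class, with 95% counting intervals. Dashed lines mark 1.5-fold, and the 4 pairs in red are *Sox11* in oligodendrocyte precursors, *Sox9* in endothelial cells, *Sox5* in ependymal cells and *Sox9* in neurons.

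*Sox11* in oligodendrocyte precursors was higher in SC300, with 49 UMIs against 25 and a log2 ratio of 0.86 [0.14, 1.62]. Of all genes of the class, 1.36% were called higher. It was called under 9 of 10 alternatives, among them no UMI minimum, which cannot change a ratio. The ratios lay between 0.64 and 0.91, and *Sox11* was not called when every cell was weighted alike. *Sox5* in the same class was lower at -0.38 [-0.69, -0.08], under 1.5-fold, where 5.8% of genes had an interval below 0. *Sox6* at 0.00 [-0.21, 0.20] and *Sox10* at -0.09 [-0.20, 0.02] had intervals that included 0. A cluster of cycling precursors with *Top2a* and *Mki67* held few cells, and without it the precursor cluster gave 10.2 CPM of *Sox11* in Control and 20.5 CPM in SC300.

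Taken as whole classes, ependymal cells and tanycytes held less *Sox5*, *Sox9* and *Sox2* in the SC300 library. In ependymal cells *Sox5* was called lower, at 168 UMIs in Control and 59 in SC300, with a log2 ratio of -0.89 [-1.35, -0.46], where 4.85% of all genes were called lower. *Sox9* at -0.20 [-0.29, -0.11] and *Sox2* at -0.20 [-0.28, -0.12] were lower by under 1.5-fold, where 12.3% of genes had an interval below 0, while *Sox6* stood at 0.00 [-0.55, 0.54]. In tanycytes *Sox9* gave -0.57 [-0.76, -0.38], *Sox5* -0.48 [-0.95, -0.02] and *Sox2* -0.26 [-0.39, -0.14]. All 3 intervals lay below 0, as did those of 10.6% of all genes in that class, and none passed 1.5-fold. The *Sox5* ratio lay between -0.89 and -0.45 over 10 alternatives and was called under 3, the stricter gate, every cell weighted alike and the top cell left out.

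**Figure D5:**
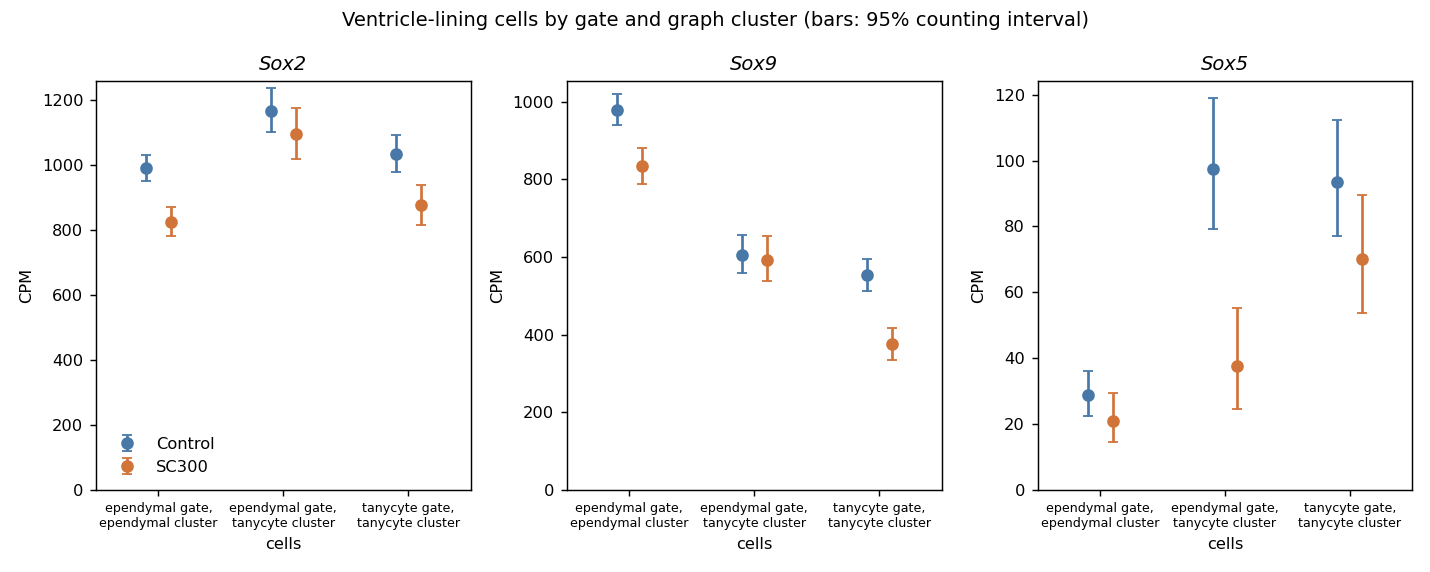
Level (CPM) of *Sox2*, *Sox9* and *Sox5* with 95% counting intervals in ventricle-lining cells of each library, split by the marker gate and by graph cluster. *Sox5* differs most in cells of the ependymal gate that lie in the tanycyte cluster (97.5 against 37.6 CPM), and *Sox9* in cells of the tanycyte gate (552 against 374 CPM).

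The split of these cells by graph cluster, chosen after seeing the data, changed which cells carried each difference. Among cells of the ependymal gate, *Sox5* went from 28.7 to 21.0 CPM in the ependymal cluster, with a log2 ratio of -0.45 [-1.09, 0.16], and from 97.5 to 37.6 CPM in the tanycyte cluster, with -1.37 [-2.06, -0.74]. *Sox9* in the same cells stood at 980 and 834 CPM in the ependymal cluster and at 605 and 593 CPM in the tanycyte cluster. *Sox2* stood at 991 and 825 CPM in the ependymal cluster and at 1167 and 1095 CPM in the tanycyte cluster. In the tanycyte cluster the log2 ratios, -0.03 [-0.21, 0.15] for *Sox9* and -0.09 [-0.23, 0.04] for *Sox2*, had intervals that included 0. The *Sox5* call of the ependymal class thus rested on cells of the tanycyte cluster, and was lost in the ependymal cluster. Cells of the tanycyte gate in the tanycyte cluster went from 552 to 374 CPM for *Sox9*. They also differed in other genes, with *Crym* at 4035 and 6118 CPM and the astrocyte gene *Agt* at 119 and 271 CPM. When all cells of the tanycyte cluster were taken, the *Sox9* ratio was -0.27. Over 11 alternatives it lay between -0.94 and -0.27 and was called under 4, among them the stricter gate with -0.86. The part of the make-up of the class in the *Sox9* difference was not tested.

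In newly formed oligodendrocytes the 4 measured SOX ratios lay below 0. *Sox6* gave -0.48 [-0.82, -0.15], *Sox8* -0.41 [-0.63, -0.19], *Sox2* -0.30 [-0.40, -0.20] and *Sox10* -0.19 [-0.31, -0.07]. None of these 4 passed 1.5-fold, and 9.54% of all genes in the class had an interval below 0. All 4 kept this sign under 11 alternatives, among them other UMI minimums, which cannot change a ratio. *Sox6* lay between -0.51 and -0.05. In the same cells the myelin gene *Mbp*, at 6578 and 8455 CPM, was higher in SC300, by 0.36 on the log2 scale and under 1.5-fold.

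In mature oligodendrocytes *Sox10* had a log2 ratio of 0.00 [-0.07, 0.08], *Sox2* of 0.08 [-0.03, 0.19] and *Sox8* of -0.12 [-0.26, 0.02]. *Sox9* was lower, from 407 UMIs in Control and 373 in SC300, at -0.55 [-0.75, -0.34], just under 1.5-fold, in a class where 12% of genes had an interval below 0. The ratio stayed between -0.56 and -0.52 under the alternatives run.

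In astrocytes *Sox2* was higher in SC300 by under 1.5-fold. From 589 and 709 CPM, the log2 ratio was 0.27 [0.22, 0.32], while *Sox9* gave 0.01 [-0.04, 0.06]. Of all genes in astrocytes, 10.4% had an interval above 0. Of the 3 astrocyte clusters, the largest, led by *Slc7a10* and *Gjb6*, held 574 and 778 CPM, and one with *Hapln1* held 627 and 692 CPM. The cluster led by *Lcat* and *Gfap* held 599 CPM [554, 647] and 636 CPM [589, 685], and these intervals overlapped. The largest cluster held 46.7% of Control astrocytes and 58.2% of SC300 astrocytes.

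In neurons *Sox9* was called lower, from 129 UMIs in Control to 66 in SC300, at 10.9 and 5.40 CPM and a log2 ratio of -1.02 [-1.47, -0.58], where 2.61% of genes were called lower. Its UMIs came from 12.6% and 7.69% of the cells, and from 2.53% and 1.18% after thinning, beside 0.240% and 0.730% of microglia. The astrocyte markers *Agt* and *Aqp4* were also lower over the whole class, and the other astrocyte markers of the gate are not given here. *Agt* stood at 77.1 CPM in Control neurons and 40.3 CPM in SC300 neurons, and *Aqp4* at 30.9 and 11.9 CPM. Of the 3 neuron clusters, the one with *Ghrh* and *Gal* had *Sox9* at 12.1 and 4.81 CPM and *Agt* at 106 and 25.9 CPM. The one with *Oxt* and *Pmch* had *Sox9* at 10.2 and 4.62 CPM and *Agt* at 44.3 and 44.7 CPM. In the cluster with *Agrp* and *Npy*, *Sox9* was at 7.81 and 11.1 CPM and *Agt* at 37.3 and 84.7 CPM. With classes from graph clusters the ratio was -0.58 [-0.95, -0.22] and was not called. The part of astrocyte RNA in the neuronal *Sox9* was not tested. *Sox2*, *Sox5* and *Sox11* in neurons had ratios between -0.02 and 0.05, with intervals that included 0.

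The call of *Sox9* in endothelial cells, from 29 to 49 UMIs at 0.70 [0.01, 1.42], was the least stable. It turned to -0.27 with graph clusters and to -0.21 with every cell weighted alike, and was called under 3 of 9 alternatives, where 3.58% of genes were called higher. *Agt* stood there at 151 and 211 CPM and *Aqp4* at 60.3 and 97.2 CPM, and their part in the value was not tested. *Sox17* in endothelial cells gave -0.15 [-0.25, -0.05], under 1.5-fold, and 7.37% of genes there had an interval below 0.

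Other members of the family were measured beside the 9. In endothelial cells *Sox18* (ENSRNOG00000016248), a SoxF factor of blood and lymph vessels, had 355 CPM in the Control library and 224 CPM in the other, and its log2 ratio of -0.66 [-0.78, -0.55] was called lower, as were 2.34% of genes. *Sox7* (ENSRNOG00000012049), the remaining SoxF gene, stood at 46.5 and 72.1 CPM. It was called higher, at 0.63 [0.38, 0.89], as were 3.58% of genes. In this class *Sox18* and *Sox7* thus differed in opposite directions between these libraries, with *Sox17* in between. The alternatives were run only for the 9 SOX genes, so the *Sox18* and *Sox7* ratios were not checked under graph clusters or other settings. *Sox18* and *Sox7* gave the only calls among 8 pairs of 5 other SOX genes, or 25% beside 5.78% of all pairs. *Sox14*, a SoxB2 gene, was found in neurons at 17.5 and 11.9 CPM, at -0.56 [-0.88, -0.25]. *Sox13* in astrocytes gave -0.37 [-0.74, -0.01], and *Sox13* and *Sox15* in endothelial cells lay between 38.8 and 44.7 CPM. *Sox12* and *Sox30* had 46 and 2 UMIs in Control and 53 and 7 in SC300, and *Sox1* and *Sox3* are not analysed here.

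Of the genes known as targets or partners of SOX factors, 154 pairs of gene and class could be compared, and 23 were called higher and 6 lower in SC300, or 18.8% beside 5.78% of all pairs, of which 2.76% were higher and 3.02% lower. By class, 6.25% of pairs were called in precursors, 7.14% in newly formed and 0% in mature oligodendrocytes. The share was 27.8% of 18 pairs in neurons, 38.5% of 13 in tanycytes and 41.7% of 12 in microglia. No share over all genes of the same class was set beside these class shares. They rest on few pairs and are not read as a difference from other genes. In microglia no SOX gene held enough UMIs for a ratio. For SOX10, 11 of 52 pairs were higher and 2 lower. In the oligodendrocyte classes, where *Sox10* was highest, 0 of 6 pairs in precursors, 1 of 7 in newly formed and 0 of 7 in mature cells were called. In neurons 4 of 6 were called, all higher. These counts by class likewise stand without a share over all genes of the class, and are not read as a difference between classes. Among the higher pairs of SOX10 was *Olig1* in neurons, which went from 6.95 to 22.1 CPM while *Sox10* stood there at 1.78 and 1.97 CPM. *Olig2*, the partner of SOX10 in precursors, stood at 1433 and 1069 CPM there, a log2 ratio of -0.42 [-0.50, -0.35].

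For SOX9, 4 of 32 pairs were higher and 2 lower, or 18.8% called beside 5.78% of all pairs. The lower ones were *Mmd2* in tanycytes, from 386 to 253 CPM at -0.61 [-0.84, -0.38], and *Mmd2* in ependymal cells, from 92.3 to 52.9 CPM at -0.80 [-1.12, -0.50]. *Mmd2* in astrocytes, where the *Sox9* interval included 0, gave 0.03 [-0.01, 0.06]. The higher ones were *Apcdd1* in astrocytes, from 22 to 47 UMIs at 0.96 [0.20, 1.76], *Apcdd1* in neurons, from 15 to 35 UMIs at 1.17 [0.26, 2.15], *Mmd2* in microglia, from 17 to 39 UMIs at 1.17 [0.31, 2.09], and *Mmd2* in endothelial cells at 0.92 [0.61, 1.23]. *Sox9* itself was called lower in neurons and higher in endothelial cells. The alternatives were not run for target genes, and *Mmd2* was not split by graph cluster. In the ependymal class, 130 of 268 cells lay in the tanycyte cluster, and their part in its *Mmd2* value was not tested. *Mmd2* stood at 1131 and 1153 CPM in astrocytes, and the part of astrocyte RNA in the microglial and endothelial values was not tested. For SOX2, 5 of 35 pairs were higher and 1 lower, or 17.1% called. The lower one was *Hes1*, an effector of Notch, in precursors, from 199.7 to 132 CPM. For the SoxC factors, 2 of 20 pairs (10%) were higher, *Map2* and *Tubb3* in tanycytes, where *Sox11* had 6 UMIs in each library. For SOX17, 1 of 15 pairs was higher and 1 lower, or 13.3% called. The shares of the SoxC and SOX17 lists rest on few calls and are not read as a difference from all pairs. In endothelial cells *Dll4* gave -0.19 [-0.42, 0.03], *Jag1* -0.18 [-0.37, 0.00] and *Notch4* 0.34 [0.09, 0.60].

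The genes most like each SOX gene across the 12 classes were found by Pearson's r of log2(CPM + 10), over 10248 genes and with the libraries summed. As the classes come from the same libraries and differ in depth, r is a description. *Sox17* was most like *Slc38a5* (0.998), *Sox10* like *Scrg1* (0.984) and *Gal3st1* (0.982), *Sox9* like *Ddb2* (0.981), and *Sox8* like the unnamed AABR07053136.1 (0.970) and *Olig2* (0.949). *Sox6* was most like *Acot1* (0.953), *Sox2* like *Mlycd* (0.952), *Sox5* like *Rnf182* (0.952), and *Sox11* like AABR07014301.3 (0.967). Among the SOX genes themselves, *Sox8* and *Sox10* were the closest pair (0.886), followed by *Sox6* and *Sox8* (0.841), and *Sox9* and *Sox10* gave -0.24.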

How the data were processed

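Single-cell suspensions of hypothalamus were sequenced with 10x Genomics 3′ chemistry version 3, 1 library per group. The authors deposited unnormalized UMI counts per gene and barcode, made with Cell Ranger (version 3.0.1 in the submitters' processing notes) and Ensembl 96. Counting collapses reads to molecules near the 3′ end, so levels are not scaled to length and depend on how well the 3′ end is annotated. The files held 4488 Control and 4524 SC300 barcodes, the numbers the deposited design text gives, and 192 and 145 with under 200 detected genes were left out, which leaves 51382276 and 56390355 UMIs.

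Cells were classed by marker lists. Per marker, the square root of UMIs per 10000 was divided by its mean over the 40 highest cells and limited to 1, and a cell went to the list with the highest mean if that reached 0.2 and led by 0.1. Markers under 500 UMIs were dropped. This left 3 markers each for tanycytes and newly formed oligodendrocytes. A shift of 0.05 in the cut changed 467 and 410 assignments. Doublets were kept, and Scrublet marked 70 and 73 cells (1.63% and 1.67%). The SOX genes, the marker and target lists were chosen with earlier results of these data known, and the scoring rule was set on the data.

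Intervals are exact at 95% (conditional binomial for a ratio, Clopper-Pearson for a share, Poisson for a level). A count of 0 was read as up to 3 UMIs. Thinning to 2000 UMIs left out shallower cells, 369 in Control and 189 in SC300. No test was made with 1 library per group. The ratio script was checked on simulated counts. Named genes are the SOX genes, other SOX genes, textbook targets or partners, and the 3 genes most like each SOX gene, leaving out gating markers and genes under 500 UMIs. Other genes named were class markers or led a cluster, and were chosen after their values were seen. Some genes of these lists are counted but not reported here by name. Alternatives were a stricter gate (0.3 and 0.2), graph clusters, 1000 detected genes, at most 20% mitochondrial UMIs, doublets left out, other scalings, other UMI minimums, the top cell left out, and thinning. The tools were scanpy 1.11.5, scipy 1.17.1, numpy 2.4.6 and pandas 2.3.3 under Python 3.11.15. Promoters came from RefSeq on GRCr8, another assembly than the one counted on.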

Additional observations from a re-analysis of the deposited data

How the results depend on the processing

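The class with the highest level was unchanged for 16 of 16 gene and library pairs with 1000 detected genes, at most 20% mitochondrial UMIs, doublets left out and the other scaling, for 15 with the stricter gate, 13 with every cell weighted alike and 11 with graph clusters. The main count of 4 called SOX ratios became 7 of 73 with no UMI minimum and 1 of 26 with a minimum of 200 UMIs, and lay between 3 and 6 under the other alternatives. *Sox9* in endothelial cells turned to -0.27 with graph clusters and -0.21 with every cell weighted alike. Of 396 ratios under alternatives, 2 reversed and 15 moved. The 37 with no UMI minimum and the 26 with a minimum of 200 UMIs could not change. That setting only decides which pairs are compared. Levels moved in 35 cases and not in 77, and shares moved in 16 and not in 32. Shares of at least 10% numbered 72 of 216, and 48 after thinning. Of the moved levels, 14 came with scaling without mitochondrial, ribosomal and haemoglobin genes, which makes the denominator smaller and so raises every SOX level. Of the moved shares, 15 came with thinning, which takes UMIs out of each cell. The causes of the other moves were not tested. No paired analysis was possible because each group was 1 library, and for the same reason no library could be left out. Low counts limit *Sox11*, *Sox21* and the small classes.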

Other observations

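*Sox8* differed between astrocyte clusters in the same way in each library. The cluster with *Slc7a10* and *Gjb6* held 98.6 CPM in Control and 87.0 CPM in SC300, the cluster with *Hapln1* 66.1 and 64.8 CPM, and the cluster with *Gfap* and *Lcat* 31.6 and 28.7 CPM, while *Sox9* stood between 469 and 571 CPM in all 3. The clusters were built without SOX genes but from the same cells, so these values are a description.

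Of the 2 clusters of mature oligodendrocytes, the larger held 58.1 CPM of *Sox9* in Control and 39.7 CPM in SC300, and the smaller, led by *Mag* and *Plppr5*, 22.7 and 14.8 CPM. A small cluster of cycling precursors with *Top2a* and *Mki67*, of 10 and 17 cells, held 497 and 244 CPM of *Sox10*, beside 604 and 580 CPM in the main precursor cluster.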
